A study of Mus musculus with 6 samples.

Results

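The secreted Wnt antagonists described here are 8 genes: the secreted Frizzled-related proteins Sfrp1, Sfrp2, Sfrp5 and Frzb, the Dickkopf proteins Dkk1, Dkk2 and Dkk3, and the Wnt inhibitory factor Wif1. They were chosen by gene symbol with earlier results of these data known, so member counts beside shares of all genes are descriptive. Every probe with 1 of these symbols was taken, which gave 11 probes. The array held 19057 genes with a symbol. A gene counted as expressed where 3 or more of the 6 arrays gave 1 of its probes a detection p-value under 0.01. That held for 6 of the 8 members, Sfrp1, Sfrp2, Sfrp5, Frzb, Dkk1 and Dkk3, and not for Dkk2 and Wif1.

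Wnt ligands are secreted glycoproteins that bind Frizzled receptors together with the co-receptors Lrp5 and Lrp6, after which beta-catenin accumulates and acts with TCF and LEF factors on target genes. Sfrp proteins carry a cysteine-rich domain like that of Frizzled and bind Wnt ligands outside the cell, as Wif1 does through a domain of its own, whereas Dkk1 and Dkk2 bind the Lrp co-receptors. Beta-catenin signalling is known to keep mouse head ectoderm from becoming lens, and the presumptive lens ectoderm shows little of it.

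Transcripts were profiled on Illumina bead arrays in ectoderm over the eye of mouse embryos of mixed FVB and 129 background at embryonic day 9.5. The 3 wild-type arrays carry the tissue label lens placode and the 3 Pax6-/- arrays the label surface ectoderm, so genotype and the named region cannot be told apart. Both came from laser microdissection of eosin-stained frozen sections. RNA of 3 embryos was pooled for each genotype and amplified in triplicate, so every p-value compares 2 pools and measures the spread of amplification and array, which makes it too small with respect to embryos. The labels do not give the Pax6 allele or the part of the gene that it lacks.

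The arrays lay on 2 slides, slide 1 with 2 arrays per genotype and slide 2 with 1. Detection was reached by 16242 to 17735 of the 45281 probes on an array, and log2 values correlated over genes at 0.947 to 0.954 within a genotype and at 0.925 to 0.936 between them. All 14 genes of a list of lens placode and surface ectoderm markers were expressed. Of 9190 genes tested, 162 were lower and 139 higher in the knockout at an adjusted p under 0.05 (limma with Benjamini-Hochberg adjustment), which is 3.28% in all. With the arrays scaled to their medians these counts were 264 and 93.

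The comparison asked which of these antagonists change without Pax6, a paired-box transcription factor on which eye formation depends. Of the 6 expressed members Sfrp2 and Dkk3 fell in the knockout, 0 rose, and Sfrp1, Sfrp5, Frzb and Dkk1 did not pass. Over all tested genes 1.76% fell and 1.51% rose. Sfrp5 and Dkk1 stood higher in the knockout, at 0.84 and 0.91 on the log2 scale, with an unadjusted p under 0.05 and an adjusted p above the threshold. That unadjusted threshold was met by 4 of the 6 members and by 16.9% of all tested genes. The median change of the 6 was 0.05, against -0.01 for all tested genes (-0.06 and -0.13 with median scaling), with 3 changes above 0 and 3 below. Wild-type and knockout values stood apart without overlap for 4 members (Sfrp2, Dkk3, Sfrp5 and Dkk1), as for 22.8% of all tested genes. Sfrp5, in both counts of 4, passed the detection filter by way of the knockout arrays, where it was higher, which favours such a difference. Because tissue was profiled in bulk, fewer cells with a transcript and less transcript per cell cannot be told apart.

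**Figure D1:**
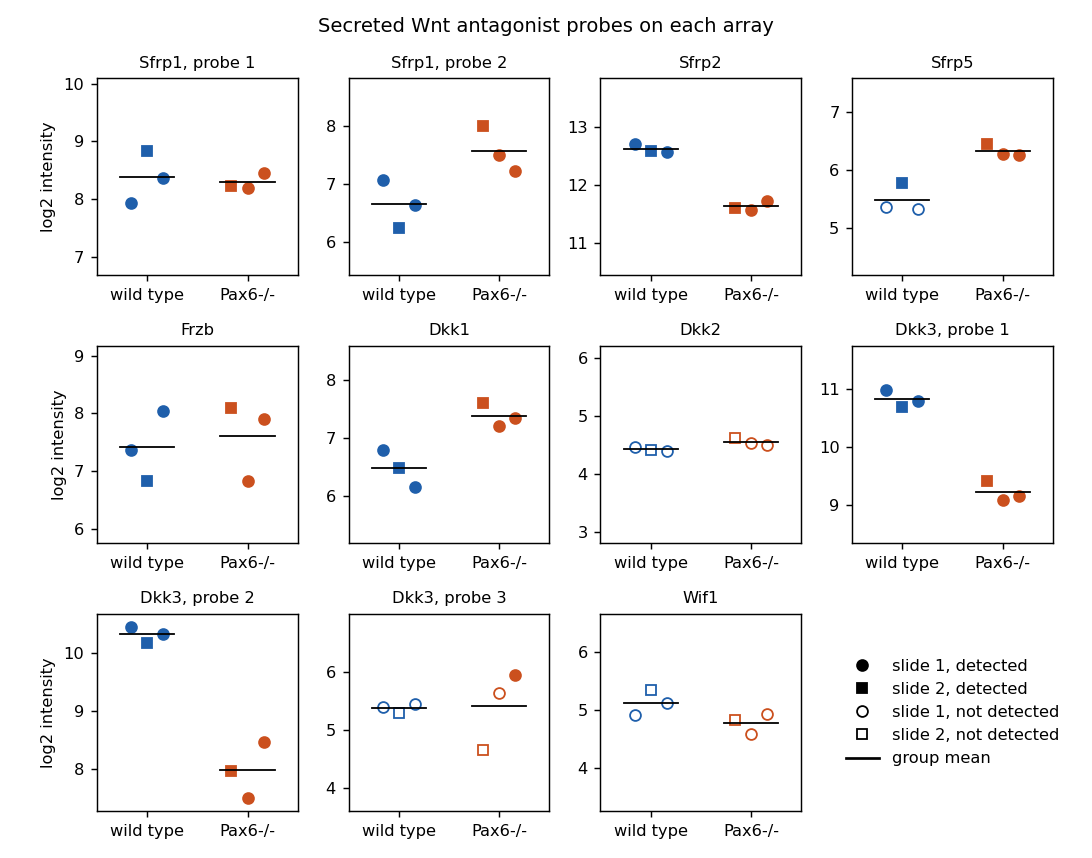
Normalised log2 intensity of the 11 probes on each array, with wild-type arrays in blue and Pax6-/- arrays in orange. Circles are slide 1, squares slide 2, open symbols arrays on which the probe was not detected, and lines the group means; each panel spans the same range of log2 units. The wild-type and knockout arrays stand well apart for Sfrp2 and for Dkk3 probes 1 and 2, and lie mixed for Sfrp1 probe 1 and Frzb.

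Sfrp2 encodes a secreted Frizzled-related protein that binds Wnt ligands. Its probe was detected on every array. The log2 intensity was 12.71, 12.60 and 12.57 on wild-type arrays 1, 2 and 3, and 11.60, 11.58 and 11.73 on knockout arrays 1, 2 and 3. Each knockout array was lower than each wild-type array, and the arrays of a genotype lay close together. The means were 12.63 ± 0.08 (SD, n = 3) and 11.64 ± 0.08 (SD, n = 3). Sfrp2 therefore fell by 0.99 (SE 0.08, 95% interval -1.16 to -0.81, limma adjusted p = 0.000139), or was 1.98-fold lower, and ranked 4 of 9190 genes by p.

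The deposited signals show the same order before any normalisation. Raw Sfrp2 intensity was 7241, 6417 and 6053 in wild type, with standard errors over beads of 321, 244 and 234. In the knockout it was 3235, 2949 and 3542, with standard errors of 102, 135 and 212. The lowest wild-type signal exceeded the highest knockout signal by more than the standard error over beads of either. The change was -0.98 on slide 1 (SE 0.12, limma adjusted p = 0.00769 with 2 arrays per genotype) and -0.99 between the arrays of slide 2, where there is no test.

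Dkk3 encodes a secreted glycoprotein that is the most divergent of the Dickkopf family and whose action on Wnt signalling differs between cell types. It had 3 probes on the array. The brightest, which represented the gene, had log2 intensities of 10.99, 10.68 and 10.79 in wild type and 9.41, 9.09 and 9.16 in the knockout. It was detected on every array, and the genotypes did not overlap. The means were 10.82 ± 0.15 (SD, n = 3) and 9.22 ± 0.17 (SD, n = 3). Dkk3 thus fell by 1.60 on the log2 scale (SE 0.14, 95% interval -1.92 to -1.28, limma adjusted p = 0.000209), a 3.03-fold lower level, and ranked 12 by p.

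A second Dkk3 probe fell as well. It was also detected on every array, at 10.45, 10.17 and 10.33 in wild type and 7.96, 7.49 and 8.46 in the knockout. The knockout arrays were all lower and spread more widely (SD 0.49, against 0.14 in wild type). Its change was -2.35 (SE 0.23, limma adjusted p = 0.000354 when all 14535 kept probes were tested), or 5.10-fold lower. The change of the second probe was lower than that of the first by 0.75 on the log2 scale (SE 0.28), and the within-array differences between the probes did not overlap between genotypes. An exact two-sided permutation test gave p = 0.1, the smallest that 3 against 3 arrays allow, and 0.2 adjusted over 2 such differences, 1 for each member with 2 kept probes. The remaining probe was dim. It was detected on 1 knockout array only and was not tested. Wild-type arrays gave 5.38 ± 0.08 (SD, n = 3) for it and knockout arrays 5.41 ± 0.67 (SD, n = 3).

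In raw intensity the first Dkk3 probe read 2268, 1799 and 1901 in wild type and 799, 622 and 704 in the knockout. Standard errors over beads were at most 105. On slide 1 the change of that probe was -1.76 (SE 0.19, limma adjusted p = 0.00512), and on slide 2 it was -1.28 with no test. For the second probe the slides gave -2.42 and -2.21, so both probes were lower in the knockout on both slides.

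**Figure D2:**
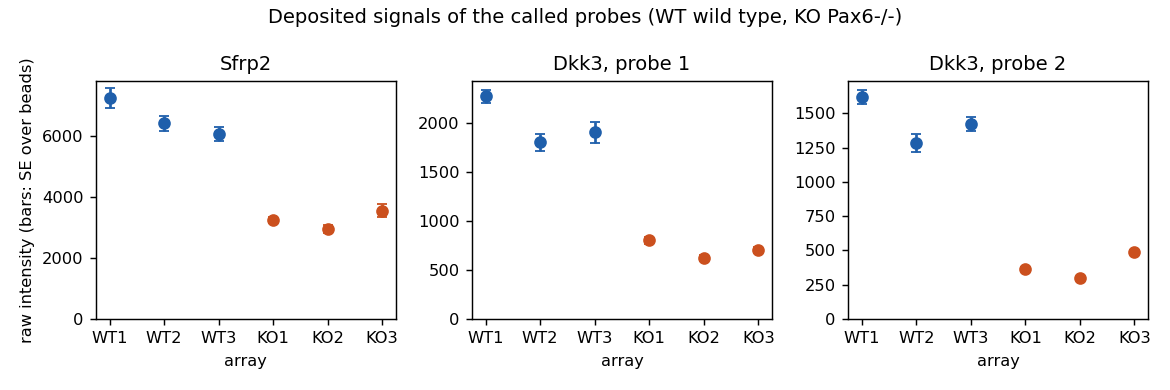
Deposited raw intensity (linear scale from 0) of the Sfrp2 probe and of Dkk3 probes 1 and 2 on each array, with bars for the standard error over beads. WT is wild type and KO is Pax6-/-. Every knockout signal lies below every wild-type signal, from 2949 to 3542 against 6053 to 7241 for Sfrp2.

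Sfrp1, another Wnt-binding Frizzled-related protein, was measured by 2 probes. The brighter read 7.94, 8.84 and 8.37 in wild type and 8.23, 8.19 and 8.46 in the knockout, with overlapping genotypes. Its change was -0.09 (SE 0.26, 95% interval -0.66 to 0.48, limma adjusted p = 0.904). Changes beyond 0.66 in either direction lie outside that interval. The dimmer probe, detected on every array too, read 7.07, 6.24 and 6.64 in wild type and 8.0, 7.50 and 7.23 in the knockout. Here every knockout array was higher, by 0.93 in the mean (SE 0.34, 95% interval 0.19 to 1.66), and the probe did not pass (limma adjusted p = 0.196 over all kept probes).

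The Sfrp1 probes differed in their changes by 1.02 (SE 0.58, exact two-sided permutation p = 0.2, adjusted p = 0.2 over 2 differences). Between the arrays of slide 2 they went opposite ways, -0.62 for the brighter probe and 1.76 for the dimmer, while on slide 1 both were above 0 (0.17 and 0.51). Without wild-type array 2 the brighter probe's change was 0.14 and on slide 1 alone 0.17, so its sign rests on that array. The files do not place the probes within the transcript, and the cause of the difference was not tested.

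Sfrp5 encodes a further Frizzled-related Wnt antagonist and was near the limit of detection. Its probe was detected on all 3 knockout arrays and on wild-type array 2 alone, so it was tested by way of the knockout arrays. It read 5.36, 5.77 and 5.32 in wild type and 6.45, 6.28 and 6.26 in the knockout. Each knockout array was above each wild-type array. The change was 0.84 (SE 0.32, 95% interval 0.13 to 1.56, limma adjusted p = 0.21), and it was 0.93 on slide 1 and 0.67 on slide 2. Its size depends on the treatment of the background, at 0.28 without background correction and 1.16 in the authors' normalised table, and it did not pass in either.

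Frzb, also known as Sfrp3, binds Wnt ligands and was first described as an inhibitor of Wnt action in the frog embryo. Its probe varied more between arrays of 1 genotype than any other expressed member's. It read 7.37, 6.83 and 8.05 in wild type and 8.09, 6.83 and 7.90 in the knockout, and both genotypes held a low array. The change was 0.19 (SE 0.40, 95% interval -0.70 to 1.08, limma adjusted p = 0.863), -0.34 on slide 1 and 1.26 on slide 2. The interval thus holds changes of either sign.

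Dkk1, which blocks Wnt signalling by binding Lrp5 and Lrp6 and is needed for head formation in the mouse, was detected on every array. It read 6.80, 6.47 and 6.16 in wild type and 7.61, 7.20 and 7.34 in the knockout. The genotypes did not overlap, with every knockout array higher. The means were 6.48 ± 0.32 (SD, n = 3) and 7.38 ± 0.21 (SD, n = 3), and the change of 0.91 (SE 0.31, 95% interval 0.22 to 1.59) did not pass (limma adjusted p = 0.157). It was 0.79 on slide 1 and 1.13 on slide 2, and 0.45 without background correction. Raw intensity was 196 to 245 in wild type and 267 to 311 in the knockout, with standard errors over beads of 9.40 to 24.4.

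Dkk2, a Dickkopf protein that binds the same co-receptors, was not well above background on any array. Its raw intensity was 105 to 133 over the 6 arrays, with detection p-values of 0.721 to 0.993. Wif1, which binds Wnt ligands, was likewise not detected, at a raw intensity of 130 to 160 and detection p-values of 0.0395 to 0.800. For both the arrays give only an upper bound, and no fold change is given.

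**Figure D3:**
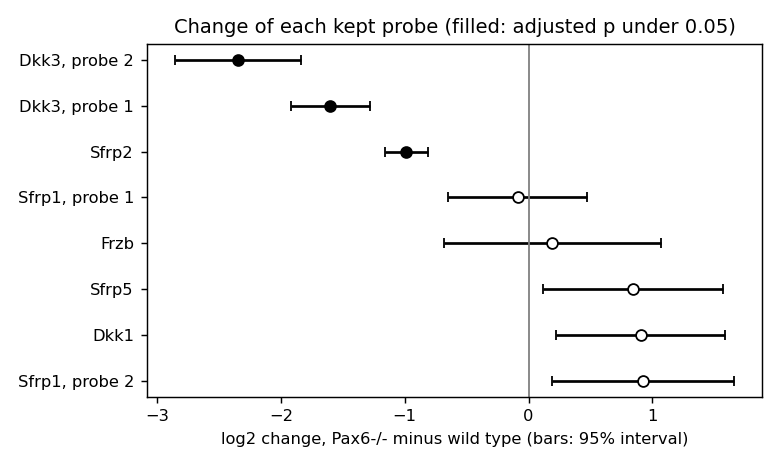
Change of the 8 kept member probes in log2 units, Pax6-/- minus wild type, from limma over all 14535 kept probes, with 95% intervals; filled points have an adjusted p under 0.05. Both Dkk3 probes and Sfrp2 lie below 0 with intervals clear of it, from -2.35 to -0.99, and Dkk1, Sfrp5 and the dimmer Sfrp1 probe lie between 0.84 and 0.93 without passing the test.

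RefSeq promoter sequences of the GRCm38.p6 assembly, from 250 bases before to 50 after the gene start, matched 6 of the 8 members (Sfrp1 and Dkk3 had no entry). That of Sfrp2 is shown because Sfrp2 fell, and that of Dkk1 because it is the member with the most motif matches. They lie at chr3:83766071-83766370 on the plus strand and at chr19:30549447-30549746 on the minus strand, and capitals mark matches to the TCF and LEF core CTTTGA on either strand.
Sfrp2: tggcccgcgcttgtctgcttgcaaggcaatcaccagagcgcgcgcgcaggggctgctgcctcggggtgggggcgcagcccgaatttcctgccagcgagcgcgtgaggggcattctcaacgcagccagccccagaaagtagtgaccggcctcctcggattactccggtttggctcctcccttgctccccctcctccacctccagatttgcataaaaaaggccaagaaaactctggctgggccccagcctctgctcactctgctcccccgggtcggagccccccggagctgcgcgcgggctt
Dkk1: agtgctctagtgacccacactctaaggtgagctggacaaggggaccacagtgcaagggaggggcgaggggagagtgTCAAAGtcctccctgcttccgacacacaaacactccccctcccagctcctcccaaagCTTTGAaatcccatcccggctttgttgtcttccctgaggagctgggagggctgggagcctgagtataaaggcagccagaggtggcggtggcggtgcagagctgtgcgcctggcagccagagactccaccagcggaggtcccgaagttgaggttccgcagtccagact
Dkk1 held 2 matches to CTTTGA, 1 on each strand, and Frzb 1, while the other members' windows held 0. That motif was in 5257 of all 32851 promoters, or 16%. The paired-class homeodomain dimer site, TAAT and ATTA 3 bases apart (0.487% of promoters), and TTCACGC, the core of the site bound by the Pax6 paired domain (1.26% of promoters), were searched on both strands as well. Neither sequence was found in the windows of the 6 members. A match describes the letters of the window and is not a binding site.

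The genes most like the called members in their pattern over the 6 arrays were found among 7351 other genes detected on all arrays. For Sfrp2 they were Carnmt1, a histidine methyltransferase gene (Pearson r = 0.9937), the retinaldehyde dehydrogenase gene Aldh1a3 (r = 0.9935) and Frmd6, a FERM-domain gene (r = 0.9925). For Dkk3 they were the mitochondrial ribosomal gene Mrpl18 (r = 0.9989), the ubiquitin ligase gene Rnf149 (r = 0.9986) and Mab21l1, a gene that the lens vesicle needs to form (r = 0.9935). Sfrp2 and Dkk3 correlated with each other at 0.985. These values describe 6 arrays in which these genes differ mostly by genotype. A like pattern is not a like size: Aldh1a3 fell by 2.06 and Mab21l1 by 1.45, whereas Mrpl18 stood at -0.40 (SE 0.12) and did not pass (limma adjusted p = 0.105). Pax6 itself was lower by 0.97 (SE 0.13) and 1.11 (SE 0.13) at its probes, which do not check the genotype.

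Of the other genes of the pathway Wnt7a and Fzd6 passed the test. Over all tested genes 3.28% passed and 16.9% had an unadjusted p under 0.05, the shares to set beside the counts below. In a list of other secreted or membrane-bound Wnt antagonists 4 of 13 genes (12 on the array) were expressed and 0 passed by limma, with 1 at an unadjusted p under 0.05. All 4 had changes above 0, from 0.06 to 0.40, but 2 of 4 did with median scaling. The highest were Sostdc1, a secreted inhibitor of Wnt and BMP signalling (0.40, SE 0.12, limma adjusted p = 0.11), and Apcdd1, a membrane-bound inhibitor (0.35, SE 0.36). Sfrp4, Dkk4 and the Dickkopf-like gene Dkkl1, relatives of the members, were not detected on any array. The Dickkopf co-receptors Lrp5, Lrp6, Kremen1 and Kremen2 were expressed and 0 passed by limma, also at an unadjusted p under 0.05. At the probes that represent them the changes ran from -0.17 to 0.54. A further Lrp5 probe, detected on 3 arrays, stood at -0.90 (SE 0.52, limma adjusted p = 0.441 over all kept probes). Kremen1 was detected on 1 wild-type and 2 knockout arrays. Kremen2, which binds Dkk1, stood at 0.54 (SE 0.40) and Lrp6 at 0.21 (SE 0.28).

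Among 19 Wnt ligands 8 were expressed, and 3 had an unadjusted p under 0.05. The test was passed by 1, which fell: Wnt7a, a ligand of ectoderm and neural tissue. It read 6.08, 6.70 and 6.07 in wild type and was not well above background on any knockout array (5.03, 4.78 and 4.60). Wnt7a thus counted as expressed through the wild-type arrays alone, where it was higher, which favours a fall. By the group means Wnt7a was at least 1.46-fold lower after background correction. The fitted change, to which the test applies, was -1.48 (SE 0.35, limma adjusted p = 0.0437), and it was -0.53 without background correction. The call was lost whichever array was left out (adjusted p 0.0787 to 0.162), and in 12 of 16 alternatives in all. The related Wnt7b stood at -0.67 (SE 0.21, limma adjusted p = 0.127) and Wnt9b, expressed by head ectoderm, at 0.98 (SE 0.31, limma adjusted p = 0.125).

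Of 14 receptors 11 were expressed, and 2 had an unadjusted p under 0.05. The test was passed by 1, which rose: Fzd6, a Frizzled receptor known for its part in planar polarity of mouse hair. It read 6.73, 6.61 and 6.08 in wild type and 7.73, 7.57 and 8.15 in the knockout, with no overlap, and rose by 1.34 (SE 0.31, limma adjusted p = 0.0437). The call was lost whichever array was left out (adjusted p 0.0643 to 0.150), and in 12 of 17 alternatives in all, the slide as a block among them (0.0635). A further Fzd6 probe stood at 0.43 (SE 0.37, adjusted p = 0.639 over all kept probes). Ror2, a receptor tyrosine kinase for Wnt5a, stood at -0.67 (SE 0.29). Of 9 genes of the R-spondin system, which sets Frizzled levels at the membrane, 4 were expressed and 0 passed by limma (1 at an unadjusted p under 0.05), with Lgr4 at -0.80 (SE 0.30). Rspo2 was detected on all 3 wild-type arrays and was not well above background on any knockout array. Its knockout mean was at least 1.20-fold lower, a bound on the means that does not allow for the spread between arrays. The fitted change of Rspo2 was -0.71 (SE 0.33) and did not pass (limma adjusted p = 0.312), so a fall was not established.

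Of 16 intracellular components 12 were expressed and 0 passed by limma, with 4 at an unadjusted p under 0.05. Apc, a scaffold of the beta-catenin destruction complex, stood at -0.97 (SE 0.35), and a further Apc probe at -0.45 (SE 0.34). Dvl3, which relays the Frizzled signal, stood at 0.93 (SE 0.45), with detection on 1 wild-type and 2 knockout arrays. Of 12 Wnt target genes (10 on the array) 7 were expressed and 0 passed by limma, and 2 had an unadjusted p under 0.05. These 2 went opposite ways, Lef1 up and Ccnd1 down. The median change of the list was 0.42, and 6 of 7 were above 0, the cyclin gene Ccnd1 being the exception at -0.23 (SE 0.10). With median scaling and without background correction 6 of 7 were above 0 too, with medians of 0.30 and 0.23. Further Ccnd1 probes stood at -0.18 (SE 0.09) and 0.05 (SE 0.27). Nkd1, a feedback inhibitor of the pathway, stood at 0.80 (SE 0.37, limma adjusted p = 0.305), the transcription factor gene Lef1 at 0.68 (SE 0.31, limma adjusted p = 0.286) and Axin2 at 0.42 (SE 0.30, limma adjusted p = 0.532). Of 12 antagonists of BMP and other ligands (11 on the array) 3 were expressed and 0 passed by limma, also at an unadjusted p under 0.05, with Grem1 at 0.42 (SE 0.39) and Twsg1 at -0.27 (SE 0.12).

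**Figure D4:**
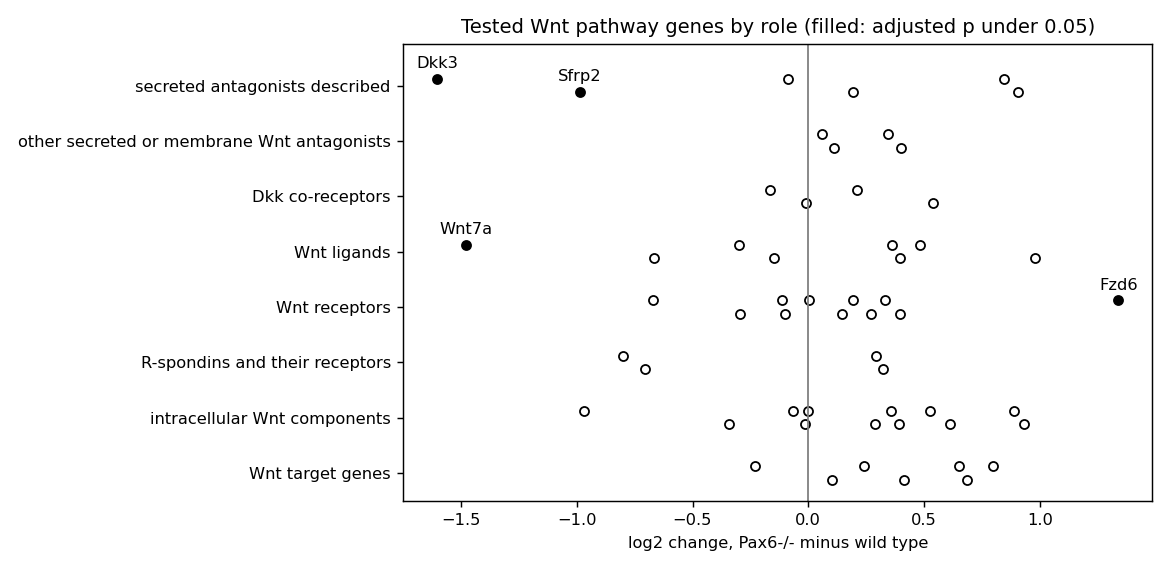
Change in log2 units, Pax6-/- minus wild type, of every tested gene of the Wnt lists, 1 row per role and 1 point per gene; filled points have an adjusted p under 0.05. The called genes are Dkk3, Sfrp2 and Wnt7a on the lower side and Fzd6 on the higher side, where the points of Wnt7a and of the R-spondin gene Rspo2 are fitted values and not bounds.

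Marker transcripts of tissues next to the ectoderm differed between the pools too, and their part in the results above was not tested. Optic vesicle and neural markers were expressed for 6 of 12 genes (11 on the array), with 6 changes above 0 (median 0.99, and 5 above 0 with median scaling or in the authors' normalised table) and 0 passing by limma (4 at an unadjusted p under 0.05). Lhx2 was not well above background on any wild-type array and counted as expressed through the knockout arrays alone. Its knockout mean was at least 1.58-fold higher, a bound on the means, and its fitted change did not pass (limma adjusted p = 0.131). The median of the 6 was 0.81 with Lhx2 at that bound, and the other 5 changes, all above 0, had a median of 0.95. The list's summed normalised intensity was 1012 to 1273 in wild type and 1372 to 1811 in the knockout, and Tubb3 and Sox1 were not detected on any array. Of 14 periocular mesenchyme and neural crest markers (12 on the array) 10 were expressed, 2 rose (0 with median scaling) and 1 fell, with sums of 3059 to 3135 and 3545 to 3858 and with Pdgfrb and Col1a1 not detected. Of 6 erythroid markers 4 were expressed and 3 rose, with sums of 2139 to 2438 and 4417 to 4896 and with Gata1 not detected. Of 6 endothelial markers 0 were expressed. The only expressed macrophage marker of 6, Aif1, stood at 1.08 (SE 0.68), with detection on 1 wild-type and 2 knockout arrays. A further Aif1 probe stood at 0.17 (SE 0.35).

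In the list of lens placode and surface ectoderm markers 4 of 14 genes fell and 2 rose (5 and 1 with median scaling), and the summed intensity was 19910 to 21790 in wild type and 16850 to 17210 in the knockout. The genes that fell were Prox1, Mab21l1, Pax6 and Sox2. The epidermal keratin gene Krt14 rose by 2.80 (SE 0.30, limma adjusted p = 0.000704). It was detected on 2 wild-type arrays and all 3 knockout arrays. Its rise was 1.45 without background correction and 3.24 in the authors' normalised table, and it passed in both. Trp63, a transcription factor gene of stratified epithelium, rose by 0.77 (SE 0.17, limma adjusted p = 0.0338). Trp63 did not pass with median scaling (0.61, limma adjusted p = 0.0885). The other 8 did not pass and lay between -0.87 (Six3) and 0.23 (Grhl2), among them the epithelial genes Cdh1 at -0.22 (SE 0.06) and Epcam at -0.33 (SE 0.13). With median scaling Cdh1 did pass (-0.35, limma adjusted p = 0.0462).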

How the data were processed

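The members and all gene lists were chosen with earlier results of these data known. The deposited table holds intensity values, the mean bead signal per probe, not normalised between arrays, with a detection p-value, the count of beads and their standard error as a signal, per the file headers. Per the submitters' processing notes the software was GenomeStudio, with neither version nor settings stated there. The authors' normalised intensity table (its method likewise unstated, 25.1% to 25.2% of values below 0) served as an alternative.

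Probes were named from the platform annotation (34885 of 45281 with 1 symbol, 18 with several, 10378 with none) and the RefSeq table of GRCm38.p6. In limma 3.58.1 (R 4.3.3) the normexp model corrected the background (function nec, background taken from detection p-values, offset 16) and arrays were quantile-normalised on the log2 scale. Probes with a detection p under 0.01 on at least 3 of 6 arrays were kept (14535), and the kept probe with the highest mean represented a gene (9190). Genotypes were compared by limma with an intensity trend, two-sided, over all genes and adjusted by the Benjamini-Hochberg method, while further probes were read from a fit over every kept probe. Differences between 2 kept probes of a member were tested by exact permutation over arrays. Where a genotype had no array with detection, the fold is a bound: the brighter mean against the dim arrays' own values, each raised to its array's lowest detected signal where that was higher. Such a bound compares means and does not allow for the spread between arrays. The p-value given with it is that of the fitted change. The procedure was tested on simulated data. Named genes were the members, the called genes of each Wnt list or otherwise up to 2 with the largest change, and the 3 genes most like each called member; other named genes (Axin2, Ccnd1, Wnt7b, Wnt9b, Ror2, Sfrp4, Dkk4, Dkkl1 and the tissue markers) were chosen after their values were seen. Alternatives were offset 50, no background correction, median scaling, other detection filters, every kept probe, no intensity trend, slide or replicate number as a block, slide 1 alone, the authors' table (floor 16) and each array left out. The number of arrays limits the precision.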

Additional observations from a re-analysis of the deposited data

How the results depend on the processing

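Sfrp2 and both Dkk3 probes stayed below the threshold in the same direction in all 17 alternatives run, at -1.13 to -0.94 for Sfrp2 (limma adjusted p up to 0.0300), -1.76 to -1.42 for the first Dkk3 probe (up to 0.0133) and -2.60 to -1.89 for the second (up to 0.0169), and 2 members were lower and 0 higher throughout, counted as genes; with every kept probe 3 member probes were lower. Dkk1 (0.45 to 1.07), Sfrp5 (0.28 to 1.16, 16 alternatives) and the dimmer Sfrp1 probe (0.49 to 1.14) did not pass in any, and their lowest values came without background correction. Sfrp1 turned to 0.17 on slide 1 alone, and ranged from -0.31 to 0.14 with 1 array left out. Frzb turned to -0.34 on slide 1 alone and ranged from -0.10 to 0.58 with 1 array left out, being below 0 without wild-type array 2 or knockout array 1. Over all genes, 264 were lower with median scaling, which moved the median of all genes from -0.01 to -0.13 and the share of higher calls from 46.2% to 26.1%; relative to that shift the members kept their signs. Lower and higher genes were 105 and 87 with no detection filter, 104 and 72 with no trend in intensity, 40 and 28 on slide 1 alone, where fewer arrays were used, and 84 to 119 lower and 59 to 107 higher with 1 array left out, the lowest counts being those that lack wild-type array 2 or knockout array 2. With the replicate block 101 genes were lower and 81 higher, and Sfrp2 and Dkk3 passed with the block too. Same-numbered arrays did not deviate together (correlations -0.0259, -0.0237 and -0.00195). Arrays numbered 1, and those numbered 2, lay on different slides in the 2 genotypes, so the correlations do not settle whether the numbers pair the arrays. The cause of these shifts in counts was otherwise not tested. Signal near background limits Sfrp5, Dkk1, Dkk2 and Wif1.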
